A study of Gallus gallus with 40 samples.

Results

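LY6E, OASL, NMI, GBP1 and B2M are genes that interferons induce in vertebrate cells. These 5 of the 6428 genes annotated on the platform were followed on liver cDNA arrays that set a high growth (HG) chicken line against a low growth (LG) line. Every spot that the platform annotation assigns to one of these symbols was taken, which gave 18 of the 19200 spots, or 17 of 18547 probes after averaging spots with a shared accession. The genes were chosen by their line differences at 5 and 7 weeks of age in earlier results of these arrays, so the values at these ages are a description without a test. LY6E, OASL, NMI and GBP1 had log2 ratios above 0 at 5 weeks, and B2M at 7 weeks. The ages that did not choose the genes, 1, 3, 9 and 11 weeks, were tested.

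Interferons are cytokines released when a cell detects viral nucleic acid. They bind paired receptor chains, whose JAK kinases activate STAT transcription factors that, with the IRF factors, switch on a broad set of antiviral genes and raise the expression of the antigen presentation machinery. In the liver this response is carried by hepatocytes and by resident immune cells such as Kupffer cells.

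The birds were broiler-type chickens kept under standard husbandry. HG came from selection for a high, and LG for a low, body weight at 8 and 32 weeks of age, and the labels name no infection or other treatment. Each array held HG and LG liver of the same age, 1 line labelled with Alexa Fluor 647 and the other with Alexa Fluor 555. Of the 40 arrays 38 were used, namely 12 at 1 week, 10 at 3 weeks and 4 each at 5, 7, 9 and 11 weeks, and HG carried each dye on the same number of arrays at every age. At 1 and 3 weeks some birds were hybridised again, and the labels do not say on which arrays, so the replicates are arrays and not birds, which by itself makes p-values at these ages too small.

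Replicates 3 and 4 at 3 weeks were left out because their ratios were nearly identical (Pearson r = 0.99988 over 9493 spots, against 0.805 for the next closest pair of arrays) although their labels give opposite dye orientations. The values are ratios, so they compare the lines for 1 probe and carry no level of a gene. They were read as Alexa Fluor 647 over Alexa Fluor 555, which was assumed and is not stated, and turned so that a positive log2 ratio means more signal from HG. Whether the ratios were already HG over LG as deposited is not stated either. Without turning, the median absolute effect over all probes was larger at every age, such as 0.0834 beside 0.0266 at 1 week and 0.116 beside 0.107 at 9 weeks. If the numerator was the other dye, every sign below flips. The direction is also not settled by the arrays. Of 38, 7 correlated below 0 with the line effect of the others averaged over all ages, the lowest at r = -0.381 (replicate 4 at 5 weeks). Because this average runs over all ages, a low r need not set an array apart from others of its own age. The lowest r between arrays of 1 orientation, across ages, was -0.307. The median absolute deviation of the log2 ratios was wider at 5 and 7 weeks (0.392 and 0.380) than at the other ages (0.146 to 0.244). Of 18 hepatocyte marker genes on the array, 17 had enough values to be tested.

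Testing required values on 75% or more of the arrays within each age, which 8 of the 17 member probes and 6432 probes in all met. These were BI391464 and BM425536 for LY6E, BI390511, CD215959 and CD216377 for OASL, BM489266 for NMI, BM490085 for GBP1 and BG710913 for B2M. Of the other 9 probes, 1 for NMI (CD218539) had no value on any array and 1 for GBP1 (BM427203) had values on 2 arrays, both at 11 weeks. The remaining 7 are described by the mean of their turned log2 ratios, without a test. Single array values of tested probes have the fitted dye effect subtracted, and ± marks the SE of limma's line effect, which pools the spread over the ages. The median SD of a probe's turned log2 ratios was 0.402 and 0.424 at 5 and 7 weeks, and 0.171 and 0.157 at 1 and 3 weeks. Pooling therefore tends to make the SE too small at 5 and 7 weeks and too large at 1 and 3 weeks.

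**Figure D1:**
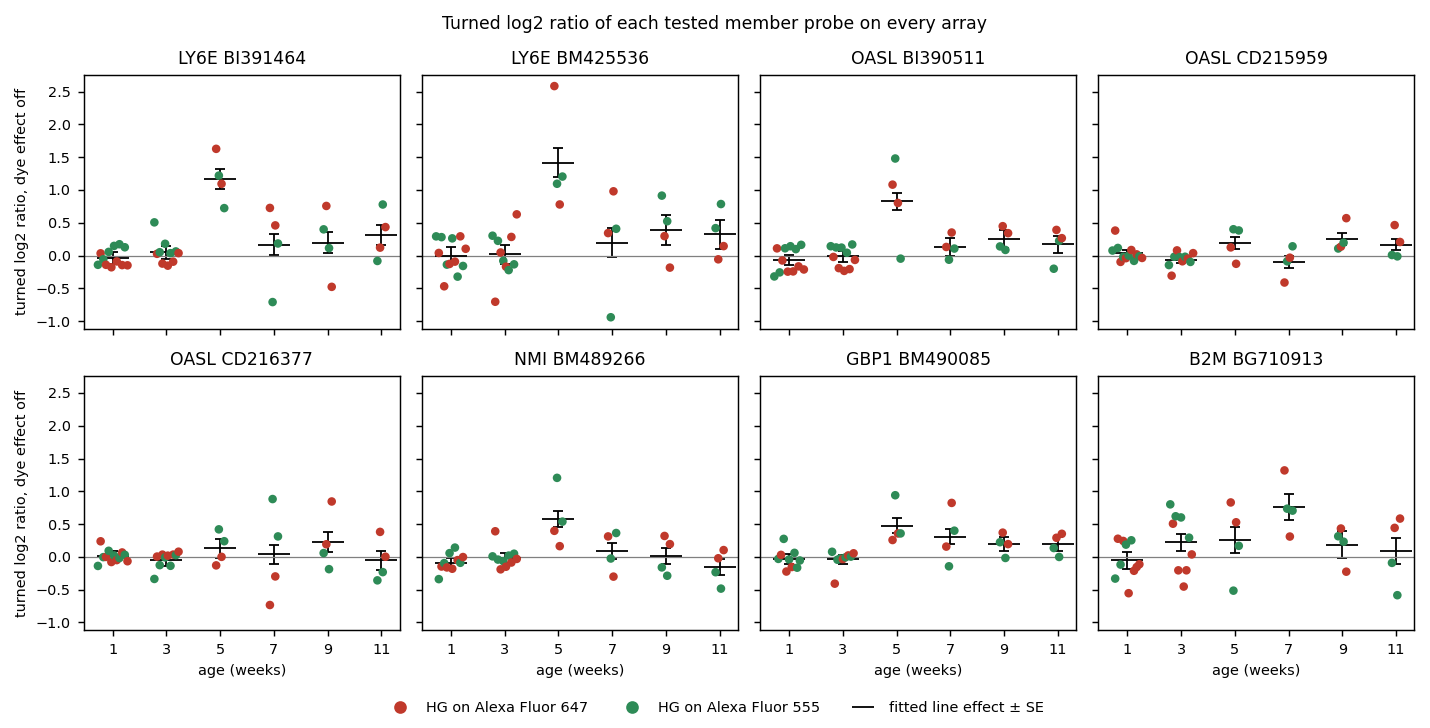
Turned log2 ratio (HG over LG under the reading given in the text) of each of the 8 tested probes on every array, with the dye effect taken off, against age in weeks. Points are arrays, coloured by the dye that HG carried, and black bars are the fitted line effect ± SE. Both LY6E probes lie above 0 on all 4 arrays at 5 weeks, and B2M does so at 7 weeks.

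LY6E encodes a small membrane-anchored protein of the LY6 family, which in mammals modulates the entry of several viruses. At 5 weeks its probe BI391464 had turned log2 ratios of 1.63, 1.22, 1.09 and 0.72 on replicates 1 to 4. All 4 arrays lay above 0 in both dye orientations, and the fitted line effect was 1.17 ± 0.16 (n = 4), a 2.24-fold ratio. In the deposited ratios this appeared as 2.14 to 3.09 on the arrays with HG on Alexa Fluor 647 and as 0.430 to 0.606 on those with HG on Alexa Fluor 555. In whole liver, more cells expressing a gene and more RNA per cell cannot be told apart, here and for all genes below.

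The second tested LY6E probe, BM425536, had values of 2.58, 1.10, 0.78 and 1.20 on the same arrays. All 4 were again above 0, and replicate 1 stood above the other 3. Its line effect was 1.42 ± 0.22 (n = 4), or 2.67-fold, and 1.01 without replicate 1. The third LY6E probe, AW355326, did not share this pattern. Its values at 5 weeks were -0.20, 0.35, 0.55 and -0.13, with a mean of 0.14 ± 0.37 (SD, n = 4), so they fell on both sides of 0. Over the 38 arrays the first pair of probes correlated with r = 0.79. The value was 0.59 over the 34 arrays outside 5 weeks and 0.43 over the 30 arrays outside 5 and 7 weeks. AW355326 had r = 0.13 with BI391464 and r = -0.10 with BM425536 over 31 arrays. These are descriptions over arrays that share ages and dye orientations.

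Away from 5 weeks the line effects of both tested LY6E probes lay closer to 0. Single arrays of BM425536 ranged widely, from -0.70 to 0.63 at 3 weeks, -0.94 to 0.98 at 7 weeks and -0.18 to 0.91 at 9 weeks. At 7 and 9 weeks its highest array thus lay above its lowest at 5 weeks (0.78). BI391464 ranged from -0.18 to 0.17 (median -0.07) over 12 arrays at 1 week and from -0.15 to 0.51 (median 0.04) over 10 arrays at 3 weeks. At 7 weeks the values were 0.73, -0.71, 0.46 and 0.18, so the arrays disagreed in sign. They did so as well at 9 weeks, with 0.40, 0.76, 0.11 and -0.48, and at 11 weeks, with -0.08, 0.12, 0.78 and 0.43.

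Turned by dye, the line effect of BI391464 ran in the order 5 weeks (1.17), 11 weeks (0.31), 9 weeks (0.20), 7 weeks (0.17), 3 weeks (0.05) and 1 week (-0.03). The ages from 11 weeks downward overlapped in their array values, and at 5 weeks only replicate 4 (0.72) fell within the range of other ages. Without turning, as if the ratios were HG over LG as deposited, the effects of BI391464 and BM425536 were 0.20 and 0.37 at 5 weeks and 0.43 and 0.57 at 7 weeks, so the order depends on the reading. By limma the effect was not past an adjusted p of 0.05 at 11 weeks (0.31, 95% interval -0.01 to 0.63, adjusted p = 1.00) or at 9 weeks (0.20, -0.12 to 0.52, adjusted p = 0.652). BM425536 gave 0.39 ± 0.22 at 9 weeks (adjusted p = 0.497) and 0.32 ± 0.22 at 11 weeks (adjusted p = 1.00), each with 3 of 4 arrays above 0.

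OASL belongs to the oligoadenylate synthetases, enzymes that sense double-stranded RNA and make the oligoadenylates that activate RNase L. Its chicken gene is also listed as OAS*A and OAS*B, the names of its alleles. At 5 weeks the probe BI390511 had log2 ratios of 1.08, 1.48, 0.80 and -0.05 on replicates 1 to 4. The first 3 arrays were well above 0. Replicate 4, which correlated lowest with the line effect of the other arrays averaged over all ages, was at 0. The line effect was 0.83 ± 0.13 (n = 4), or 1.78-fold, and 1.13 without replicate 4.

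Probes that missed the filter because too few arrays had a value at some other ages gave the same sign at 5 weeks. BI067058 had values of 1.85, 2.57, 0.05 and 0.52, with a mean of 1.25 ± 1.17 (SD, n = 4). BG711950 was measured on 3 arrays at 5 weeks, with 1.64, 3.02 and 1.53, and on no array at 1, 3 or 9 weeks. The size of these values varied widely between arrays. Both probes read the same RNA on the same arrays as BI390511, at the age that chose OASL, so they are not further replicates. BG711950 had no value on replicate 4, where BI390511 was at 0. At 1 week BI067058 was below 0 on all 9 arrays with a value, which was picked out after the values were seen. Its mean there was -0.23 (-0.47 to -0.02), with the dye effect not removed and without a test. The share of all probes below 0 on every array at 1 week was not counted. The tested OASL probes BI390511, CD215959 and CD216377 were at -0.07, 0.03 and 0.01 there, each with 5 of 12 arrays above 0.

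The remaining OASL probes, CD215959 and CD216377, were much closer to 0 at 5 weeks. CD215959 read 0.12, 0.40, -0.13 and 0.38, and its line effect was 0.20 ± 0.09. CD216377 read -0.13, 0.42, 0.00 and 0.24, with a line effect of 0.13 ± 0.15. Before turning, the deposited ratio of CD216377 was below 1 on every array at 5 and 7 weeks, whichever line carried Alexa Fluor 647. Over all arrays BI390511 correlated with BI067058 at r = 0.80 (24 arrays), with CD215959 at 0.31 and with CD216377 at 0.18 (38 arrays). Outside 5 and 7 weeks these values were 0.26 (16 arrays), 0.40 and 0.42 (30 arrays). CD215959 and CD216377 correlated at 0.60 over all arrays and at 0.69 outside those ages. The OASL value of a mean over its 3 tested probes at 5 weeks, 0.39, averages these unlike values.

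At 9 weeks CD215959 had values of 0.11, 0.14, 0.20 and 0.57, and BI390511 had 0.14, 0.45, 0.09 and 0.34. These were the member probes above 0 on all 4 arrays at 9 weeks, which 12.4% of all tested probes also were. At 11 weeks 0 of the 8 member probes were, against 5.63% of all probes. The line effects were 0.25 ± 0.09 for CD215959 (unadjusted p = 0.00774, limma adjusted p = 0.280) and 0.25 ± 0.13 for BI390511 (adjusted p = 0.460). At 7 weeks the line effects of the 3 OASL probes were 0.13, -0.10 and 0.04, and at 11 weeks they were 0.17, 0.17 and -0.05. At 1 and 3 weeks they lay between -0.07 and 0.03.

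GBP1 is a large GTPase that coats and disrupts intracellular pathogens in mammals. At 5 weeks BM490085 had log2 ratios of 0.26, 0.94, 0.36 and 0.36. All 4 arrays were above 0, with replicate 2 well above the rest. The line effect was 0.48 ± 0.11 (n = 4), or 1.39-fold, and 0.32 without replicate 2. At 7 weeks the values were 0.16, -0.14, 0.82 and 0.40, which gave 0.31 ± 0.11 with 3 of 4 arrays above 0. Smaller positive line effects were found at 9 weeks (0.19 ± 0.11, adjusted p = 0.487) and at 11 weeks (0.19 ± 0.11, adjusted p = 1.00), each with 3 of 4 arrays above 0 and neither past the limma threshold. At 1 and 3 weeks GBP1 was at -0.03 and -0.04.

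NMI binds MYC and STAT proteins and augments cytokine-driven transcription in mammals. At 5 weeks BM489266 had log2 ratios of 0.40, 1.21, 0.16 and 0.54. All 4 were above 0, and replicate 2 was again the highest. The line effect was 0.58 ± 0.12 (n = 4), or 1.49-fold, and 0.36 without replicate 2.

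After 5 weeks the NMI ratios scattered around 0 or below. At 7 weeks its values were 0.31, -0.02, -0.30 and 0.36, and at 9 weeks -0.16, 0.32, -0.29 and 0.19, with line effects of 0.09 and 0.02. At 11 weeks it read -0.23, -0.02, -0.48 and 0.10, so 3 of 4 arrays were below 0, and the line effect of -0.16 ± 0.12 was the lowest of the 8 tested probes (limma adjusted p = 1.00). Whether NMI differed from the other members there was not tested.

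B2M encodes beta-2 microglobulin, the light chain shared by all classical MHC class I molecules that display peptides to T cells. Turned by dye, its highest line effect was at 7 weeks. There BG710913 had log2 ratios of 1.32, 0.74, 0.31 and 0.71 on replicates 1 to 4, all above 0. The line effect was 0.77 ± 0.20 (n = 4), or 1.70-fold. Without turning it was 0.17 at 7 weeks, 0.55 at 5 weeks and 0.55 at 11 weeks, so here too the order of the ages depends on the reading.

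The other B2M probes had values on every array from 5 to 11 weeks except BM427569, and they gave nearly the same mean at 7 weeks. BI390426 had values of 1.39, 1.21, 0.03 and 0.22 (mean 0.71 ± 0.69, SD). BI390446 read 1.58, 0.14, 0.59 and 0.51, with a mean of 0.70 ± 0.61 (SD). BI395004 read 1.52, 1.02, 0.43 and 0.21, with a mean of 0.80 ± 0.59 (SD). All 4 arrays were above 0 for each of them, replicate 1 was the highest throughout, and BM427569 had a single value of 1.43 on that array. Replicate 1 at 7 weeks was also among the arrays that correlated below 0 with the line effect of the others (r = -0.074). With replicate 1 left out, the 7-week line effect of BG710913 was 0.58. The B2M probes correlated with each other at r between 0.69 and 0.96 over 13 to 32 arrays. Outside 5 and 7 weeks the range was 0.57 to 0.94 over 12 to 24 arrays. At 7 weeks the B2M probes with values on all 4 arrays thus gave like means, where those of LY6E and OASL at 5 weeks did not. They read the same RNA and are not replicates of the lines. At 9 weeks the B2M probes differed in sign. BG710913 was above 0 on 3 of 4 arrays, as was BM427569, while BI395004 was on 2 of 4, and BI390426 and BI390446 on 1 of 4.

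At 5 weeks BG710913 read 0.83, -0.51, 0.53 and 0.17, so B2M fell on both sides of 0 at the age when LY6E was highest, and its line effect was 0.25 ± 0.20. At 3 weeks it ranged from -0.45 to 0.80 (median 0.29) over 9 arrays, with a line effect of 0.22 ± 0.13 (limma unadjusted p = 0.105, adjusted p = 1.00). The 4 highest of these arrays were replicates 1, 2, 5 and 7, of which replicates 1, 2 and 7 correlated below 0 with the line effect of the other arrays. The less often measured B2M probes had means of 0.39 to 0.51 at 3 weeks, on 3 to 9 arrays. At 9 weeks BG710913 was at 0.19 ± 0.20 and at 11 weeks at 0.09 ± 0.20, where its values were -0.09, 0.44, -0.58 and 0.58 and split by the dye that HG carried.

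**Figure D2:**
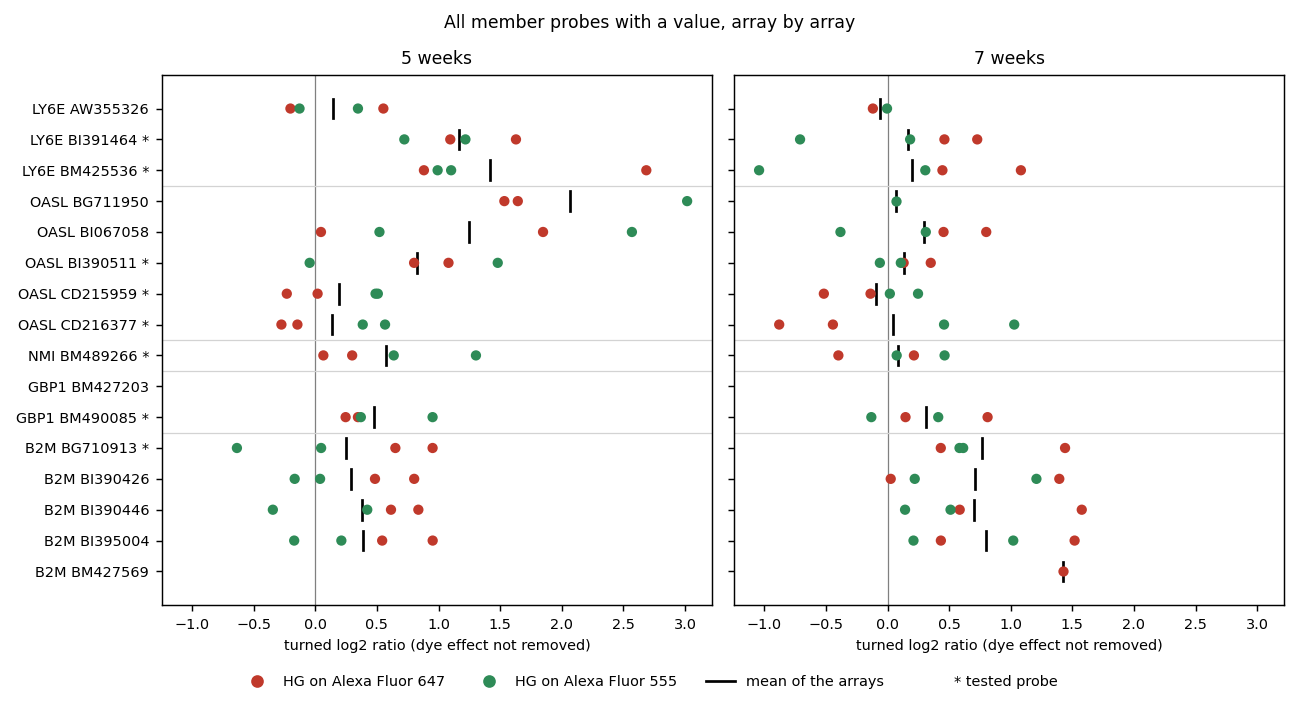
Turned log2 ratio of every member probe with a value at 5 weeks (left) and 7 weeks (right), 1 point per array coloured by the dye that HG carried, with the dye effect not removed. Vertical bars are means over the arrays and an asterisk marks a tested probe. At 5 weeks LY6E AW355326, OASL CD215959 and OASL CD216377 lie near 0 while the other LY6E and OASL probes have means between 0.83 and 2.07, and at 7 weeks every B2M mean is between 0.70 and 1.43.

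At the ages that did not choose the genes, limma passed the line effect of 0 of the 8 member probes at an adjusted p of 0.05. The background was low as well: of all 6432 probes 0.0155% passed at 1 week, 0% at 3 weeks, 0.84% at 9 weeks and 0.389% at 11 weeks. At an unadjusted p under 0.05, 1 member probe (OASL CD215959) passed at 9 weeks, where 11.4% of all probes did. At 1, 3 and 11 weeks 0 members did, against 1.34%, 0.42% and 4.17% of all probes. The pooled spread tends to make p-values at 1 and 3 weeks too large, so counts of 0 there do not show that the lines were alike. The median SE of a line effect was 0.0715 at 1 week and 0.122 at 9 and 11 weeks, and the widest 95% interval of a member at 9 or 11 weeks, that of LY6E BM425536, ran from -0.07 to 0.84 at 9 weeks. Differences of the size seen for LY6E at 5 weeks lay outside the members' intervals at 1, 3, 9 and 11 weeks. Differences the size of GBP1's at 5 weeks lay inside those of both LY6E probes at 9 and 11 weeks. They also lay inside those of B2M at 3, 9 and 11 weeks and of OASL BI390511 and CD216377 at 9 weeks.

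The mean line effect over 1, 3, 9 and 11 weeks also passed for 0 of 8 members, against 1.1% of all probes. The largest were LY6E BM425536 (0.18 ± 0.09, limma adjusted p = 0.569) and LY6E BI391464 (0.13 ± 0.07, adjusted p = 0.540), and the smallest p was that of OASL CD215959 (0.10 ± 0.04, p = 0.0124, adjusted p = 0.323). At an unadjusted p under 0.05, 2 of 8 members passed, against 9.16% of all probes. These counts of 0 depend on the fit: with limma array weights 3 calls were made among the members at single ages and 2 for the mean, where 22.6% of all probes passed at 9 weeks, 7.84% at 11 weeks and 29.2% for the mean.

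From 1 and 3 weeks to 9 and 11 weeks the line effect increased for 7 of the 8 member probes in its point estimate, and NMI had a difference of -0.02. The share of all probes that increased was not counted, so nothing is read from the 7. The median line effect over all probes also rose, from 0.005 and -0.007 at 1 and 3 weeks to 0.045 and 0.023 at 9 and 11 weeks. OASL CD215959 differed by 0.22 ± 0.07 (p = 0.00443, adjusted p = 0.274), OASL BI390511 by 0.25 ± 0.11 (adjusted p = 0.525) and GBP1 by 0.23 ± 0.09 (adjusted p = 0.494). In this contrast, chosen after the data were seen, limma passed 0 of 8 members, against 0.466% of all probes, and 3 of 8 at an unadjusted p under 0.05, against 8.04%. At 9 weeks 8 of 8 and at 11 weeks 6 of 8 member probes had a line effect above 0, but so did 61.6% and 61.0% of all probes. The members' median line effect was 0.21 at 9 weeks and 0.17 at 11 weeks, beside 0.05 and 0.02 over all probes.

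The other genes of the interferon pathway were set beside the members. Of a list of 100 pathway genes 38 were on the array and 19 were tested, each as the mean of its probes. Of the 15 tested genes that were not members, limma passed 0 at every age, and at 5 weeks 0 also had an unadjusted p under 0.05. The 4 genes of the list that passed at 5 weeks were all members, chosen by their differences there. The counts of 0 among the rest at 5 weeks follow in part from that choice, and nothing is read from them. The background over 3181 genes at 5 weeks was 0.472%. At that age 9 of these 15 genes had a positive line effect, as did 55.2% of all genes. Their median was 0.04 beside 0.01 over all genes, and the highest of the 15 was 0.24.

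By role, the receptor chains IFNAR2 and IFNGR1 had line effects of 0.16 and 0.10 at 5 weeks. The RNA sensor IFIH1 was at -0.06 and its adaptor MAVS at -0.12. Among the transcription factors, IRF1 was at 0.24, IRF8 at 0.10, IRF7 at 0.08 and IRF5 at -0.11. Other interferon-induced genes included IFI35, the partner of NMI in mammals, at 0.05, the RNA-editing enzyme ADAR at 0.05, PARP14 at 0.04, XAF1 at -0.05 and ZC3HAV1, which binds viral RNA, at -0.15. No adjusted p among these 15 genes was below 0.633 at 5 weeks.

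The 19 pathway genes on the array that could not be tested included MX1, CMPK2 and TRIM25, which had no value at 5 weeks. ZNFX1, an RNA helicase that senses double-stranded RNA in mammals, was measured on all 4 arrays at 5 weeks and on none at 1 or 3 weeks. Its mean turned log2 ratio was 0.90 at 5 weeks (0.53 to 1.36), with all 4 arrays above 0, and 0.12 at 7 weeks (-0.59 to 0.44). This gene was picked out after its values were seen. IFNGR2, picked out in the same way, was also above 0 on all 4 arrays at 5 weeks, with a mean of 0.23 (0.13 to 0.35). The other untested pathway genes with values on all 4 arrays at 5 weeks fell on both sides of 0. These were IRF2 (mean 0.17, -0.14 to 0.54), GBP4L (0.17, -0.26 to 0.46), GBP (0.15, -0.43 to 1.24), STAT3 (0.04, -0.06 to 0.14), JAK1 (0.03, -0.38 to 0.36) and TLR3 (-0.13, -0.56 to 0.43).

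**Figure D3:**
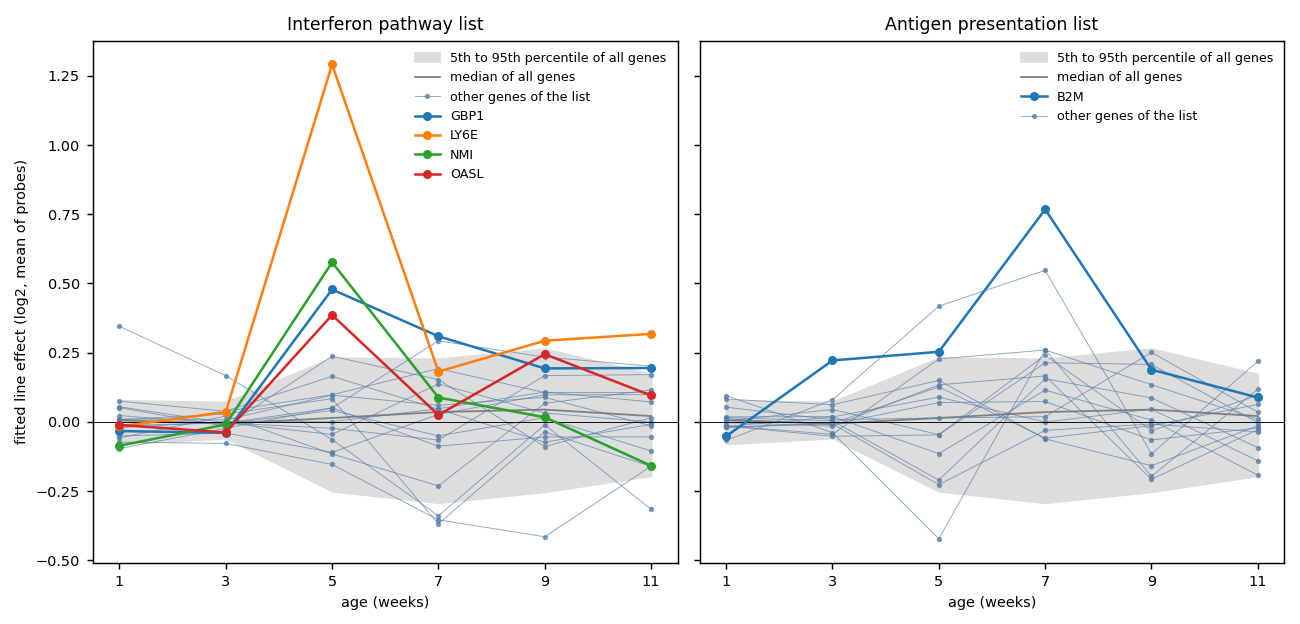
Fitted line effect (log2, mean of a gene's tested probes) against age in weeks for the tested genes of the interferon pathway list (left) and of the antigen presentation list (right). Member genes are in colour, other genes of the list in thin lines, and the grey band spans the 5th to 95th percentile of all 3181 genes. With ratios turned by dye as plotted, LY6E is at 1.29 at 5 weeks and B2M at 0.77 at 7 weeks. The other reading of the ratios changes this order. The other tested pathway genes reach 0.24 at most at 5 weeks, but the members had been chosen by their values at these ages.

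At 7 weeks the other interferon genes spread to both sides, from -0.37 (IRF7) to 0.29 (ADAR), and 4 of 15 had an unadjusted p under 0.05 with 0 past the adjusted threshold (limma, lowest adjusted p = 0.107). The background at 7 weeks was 2.48% of genes at the adjusted threshold. The share of all genes at an unadjusted p under 0.05 was not counted, so the 4 of 15 has no background beside it. At 9 weeks the smallest p values were those of ZC3HAV1 (-0.42, adjusted p = 0.287), the member OASL (0.24, adjusted p = 0.298) and ADAR (0.23, adjusted p = 0.331). None passed the adjusted threshold at 9 or 11 weeks, where 0.566% and 0.44% of all genes did. At an unadjusted p under 0.05, 2 and 1 of the 15 passed. That share was counted over probes only, and was 11.4% at 9 weeks and 4.17% at 11 weeks.

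For B2M the other antigen presentation genes were set beside it. Of 37 listed genes 21 were on the array and 15 were tested. At 7 weeks 10 of the 14 genes other than B2M had a positive line effect, as did 61.6% of all genes. The median of these 14 was 0.13 beside 0.04 over all genes, and 0 passed the limma threshold (lowest adjusted p = 0.190, 3 at an unadjusted p under 0.05). The share of all genes at an unadjusted p under 0.05 was not counted at this age. B2M was chosen by its value at this age, so the count of 0 among the rest follows in part from that choice. The MHC class I heavy chain genes BF1 and BF2, which pair with beta-2 microglobulin, had line effects of 0.55 and 0.24. TAPBP, which loads peptides onto class I molecules, was at 0.26, and the proteasome activators PSME3 and PSME4 were at 0.26 and 0.21. The tested genes of the list below 0 were PDIA3 (-0.06), CD1B (-0.06), LGMN (-0.03) and CTSB (-0.0008). The class II genes BLB1 and CD74 were at 0.07 ± 0.07 and 0.16 ± 0.14, beside 0.24 ± 0.09 for BF2. Whether class I and class II genes differed was not tested. Of the peptide transporter genes, which could not be tested, TAP1 had a mean of -0.35 (-0.83 to 0.08) and TAP2 of 0.11 (-0.23 to 0.59) at 7 weeks. BF1 and BF2 are close paralogs whose cDNAs may hybridise to each other's spots, so their split is uncertain.

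Over all 3852 probes of other genes with a symbol that could be compared, the probe most like B2M over all arrays was that of BF1 (Pearson r = 0.77 over 35 arrays), followed by CUBN, an endocytic receptor (0.73), and LOC425607 (0.70). Outside 5 and 7 weeks the order of these 3 turned, with LOC425607 at 0.80, CUBN at 0.74 and BF1 at 0.69. LY6E BI391464 was most like the probes of GPRC5C (0.87), PPP3R1 (0.85) and KLHDC8A (0.83), and LY6E BM425536 like those of ZFHX3 (0.74), GATD3AL1 (0.73) and GPRC5C (0.71). OASL BI390511 was most like GSL (0.84), KLHDC8A (0.78) and LY6E BI391464 itself (0.78). The nearest probes of CD216377 were those of DNAJC30 (0.96), CDIN1 (0.95) and CRYBB2 (0.94), and of CD215959 those of PRKAA1, WBP2NL and PAQR7 (all 0.87). NMI was nearest to GSL (0.78), SNRPE (0.74) and BCAR1 (0.66), and GBP1 to ELAPOR2, AANAT and RUFY3 (all 0.78). The points of these correlations share arrays, ages and dyes, and they include the ages that chose the members. Outside those ages some fell, such as LY6E BM425536 with ZFHX3 to 0.35, NMI with GSL to 0.44 and OASL BI390511 with LY6E BI391464 to 0.59, while those of CD216377 were 0.93 to 0.94.

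Markers of leukocytes, which could carry interferon-induced RNA into a liver sample, were set beside the members. Of 55 listed genes 20 were on the array and 12 tested. At 5 weeks 8 of 12 had a positive line effect with a median of 0.05 (range -0.22 to 0.88), and at 7 weeks 10 of 12 with a median of 0.11 (-0.05 to 0.52). Over all genes 55.2% were positive at 5 weeks with a median of 0.01, and 61.6% at 7 weeks with a median of 0.04. The T cell gene CD3E was at 0.03 and 0.10 at 5 and 7 weeks, the macrophage receptor CSF1R at 0.07 at both ages and the Kupffer cell receptor MARCO at -0.04 and 0.12. LYG2, a goose-type lysozyme, was the exception at 0.88 (limma adjusted p = 0.0322) and 0.52. PTPRC and CD4 were not analysed here. Of 22 listed erythroid genes 7 were on the array and 4 tested. At 7 weeks 1 of these 4 passed the limma threshold with a positive sign, where 2.48% of all genes passed. HBBA was at 0.00 at 5 weeks and, as the highest of the 4, at 0.86 at 7 weeks, with CA2, SLC4A1 and SPTB between -0.02 and 0.14 at 7 weeks. The part of leukocytes and of blood in the members' values was not tested.

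Some hepatocyte genes also differed between the lines at these ages. At 5 weeks 7 of the 17 tested markers had a positive line effect, against 55.2% of all genes, with a median of -0.10 and a range from -0.94 to 0.83. The 1 that passed was TTR, which carries thyroid hormone (-0.94, limma adjusted p = 0.00154). FGG at 0.83 and FABP1 at 0.76 had the opposite sign and did not pass. At 7 weeks 3 of 17 passed with a positive sign, among them TF at 0.93, and 2 with a negative sign. These compare with 0.472% and 2.48% of all genes. Over all probes 0.777% passed at 5 weeks and 2.91% at 7 weeks. Of the 8 tested member probes 4 at 5 weeks and 1 at 7 weeks were above 0 on every array, as were 3.19% and 4.43% of all probes. Because these ages chose the members, nothing is read from these shares.

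**Figure D4:**
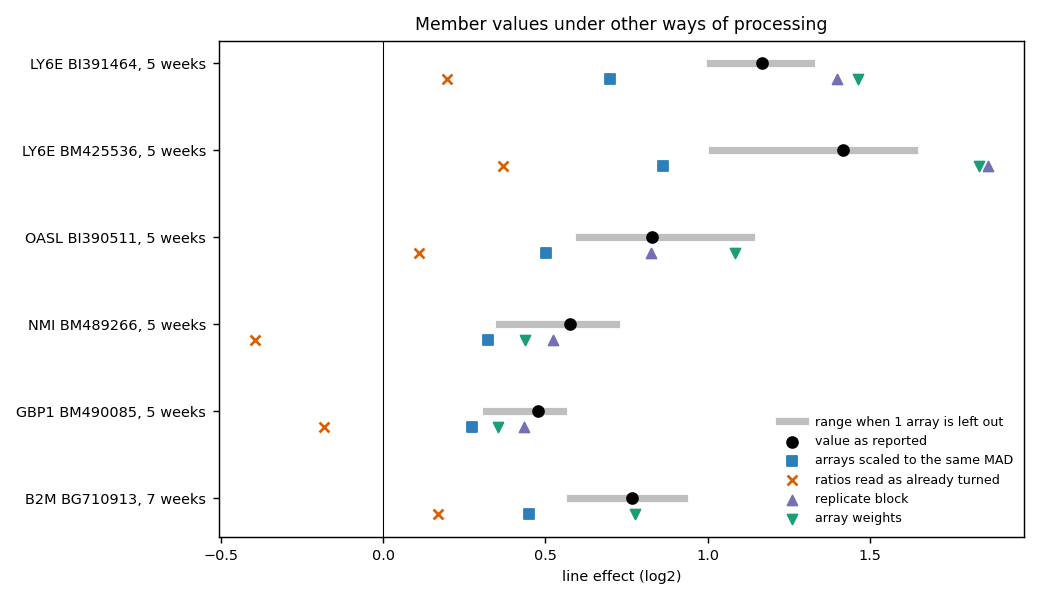
Line effect (log2) of the 5 tested member probes with the largest values at 5 weeks and of B2M at 7 weeks under other ways of processing. Black points are the values as reported, grey bars the range when 1 array of the age is left out, and other symbols single alternatives. All leave-one-out ranges lie above 0, which the array values at these ages had fixed. Reading the ratios as already turned puts NMI at -0.39 and GBP1 at -0.18.

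Both LY6E probes, OASL BI390511, NMI and GBP1 at 5 weeks and B2M at 7 weeks stayed above 0 with any 1 array left out. The array values had fixed this, with 4 of 4 above 0 (3 of 4 for OASL BI390511), so it adds no support. The size of these effects depended on scaling. With every array scaled to the same spread, the 5-week effects were 0.70 and 0.86 for the LY6E probes, 0.50 for OASL BI390511, 0.32 for NMI and 0.27 for GBP1, and B2M at 7 weeks was 0.45. Leaving out replicate 4 at 5 weeks and replicates 1 and 2 at 3 weeks removed 3 of the 7 arrays that correlated below 0 with the line effect of the others. The 5-week effects were then 1.31 and 1.48 for LY6E, 1.13 for OASL BI390511, 0.59 for NMI and 0.51 for GBP1. Replicate 1 at 7 weeks, also among the 7, was kept, so this does not bear on B2M at 7 weeks. Under the other reading, in which the authors' ratios are HG over LG as they stand, NMI would be at -0.39 and GBP1 at -0.18 at 5 weeks, LY6E at 0.20 and 0.37 and OASL BI390511 at 0.11, and B2M would be at 0.17 at 7 weeks.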

How the data were processed

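Per the labels' protocols, liver total RNA was column-purified, its integrity was checked, and cDNA was labelled indirectly with Alexa Fluor dyes. The authors deposited 1 linear ratio per spot and array. Its array medians lay between 0.966 and 1.01, so it was taken as already normalised. The normalisation, background correction, spot filter and numerator dye are not given in the sources used here, and the number of arrays limits the precision. Between 7291 and 13434 spots per array had a value.

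The log2 of the ratio was fitted with limma 3.58.1 in R 4.3.3 (lmFit, eBayes), with a line effect per age coded by dye orientation and 1 dye effect shared by all ages. P-values are two-sided and Benjamini-Hochberg adjusted over 6432 probes, or 3181 genes, per contrast. The design planned all 40 arrays, and 2 near-identical ones were left out after they were seen. In simulated data for the line effect at 9 weeks, the fit called 95 of 100 probes changed by a log2 of 1 and 62 of 100 changed by 0.5, among 6432. The simulated noise was normal, independent between arrays and of 1 spread per probe over all ages, unlike the real arrays. These counts are therefore not the power of the real test. Gene symbols are those of the platform's annotation and may be outdated.

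The members, the gene lists and the tests were chosen with earlier results of these data known. All members are named, with the list genes of smallest p at 9 or 11 weeks and the 3 probes most like each member. Alternatives changed scaling, centring, dye terms, spread, filter, averaging, arrays, the reading of the ratio and a replicate block. Motifs and sequences were not used here.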

Additional observations from a re-analysis of the deposited data

Results flagged for a closer look

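Among the tested member probes and ages, 43 groups had 4 to 10 arrays (larger groups were not looked at), and 5 of them held a highest or lowest array that stood far from the nearest other array relative to the range of its group. Chance alone gives such a value in about 1 in 20 groups. At 3 weeks LY6E BI391464 read 0.51 on replicate 1, next to 0.18 on the nearest array, and OASL CD216377 read -0.34 on the same array, next to -0.14. Replicate 2 at 3 weeks gave NMI 0.39, next to 0.05, and GBP1 -0.41, next to -0.04. At 5 weeks GBP1 read 0.94 on replicate 2, next to 0.36. Replicates 1 and 2 at 3 weeks correlated with the line effect of the other arrays at r = -0.196 and -0.166. With the array in question left out, the line effect at 3 weeks was 0.00 for LY6E BI391464, -0.01 for OASL CD216377, -0.06 for NMI and 0.01 for GBP1, and at 5 weeks it was 0.32 for GBP1.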

How the results depend on the processing

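The count of 0 member probes past the threshold at 1, 3, 9 and 11 weeks was the same under all alternatives but those named next, and with any 1 replicate left out (lowest 0, highest 0). It was 3 with limma array weights (LY6E BM425536 at 9 weeks, 0.65, adjusted p = 0.0151, OASL CD215959 at 9 weeks, 0.20, adjusted p = 0.0236, and NMI at 11 weeks, -0.29, adjusted p = 0.0461), where 1452 and 504 of 6432 probes passed at these ages. It was 1 with ratios read as already turned (B2M at 11 weeks, 0.55, limma adjusted p = 0.0444), where 16.1% of all probes passed. With a dye effect per age and replicate set, added after the data were seen, it was 1 (OASL CD215959 at 9 weeks, 0.25, adjusted p = 0.0482), where 5.12% passed. For the mean over these ages the count was 2 with array weights, where 29.2% of all probes passed. It was 1 with the replicate block (LY6E BM425536, 0.60 instead of 0.18, limma adjusted p = 0.0467), where 4.02% passed. For 9 and 11 weeks minus 1 and 3 weeks it was 3 with array weights and 1 with ratios read as already turned. There 28.1% and 28.3% of all probes passed. With ratios read as already turned, NMI at 5 weeks was reversed to -0.39 and GBP1 to -0.18. More probes passed under it at every age, such as 3088 instead of 50 at 5 weeks, 1250 instead of 1 at 1 week and 594 instead of 54 at 9 weeks. The median absolute dye-sided effect was larger than the line effect at every age, with 0.231 beside 0.0903 at 5 weeks. Without 3 of the 7 arrays that correlated below 0 with the line effect of the others, 944 probes passed at 5 weeks. Scaled to the same spread, 6 and 29 probes passed at 5 and 7 weeks instead of 50 and 187, with a dye effect per age 110 and 376, and with a separate fit per age 0 and 25. The causes were not tested. The replicate numbers were not taken to pair the arrays. Of 58 same-numbered pairs 37 correlated above 0.1 (r = -0.352 to 0.581, median 0.184), and 11 of 38 arrays correlated best with their own number. Correlations of differently numbered pairs entered only the search for the best match among arrays of other ages, and their spread was not summarised. These counts therefore do not settle whether the numbers pair arrays. Of the 876 values of member probes under the alternatives 832 kept the sign of the reported value and 44 did not, and 5 came to pass. Many alternatives, such as other dye terms or filters, could not move a member's value, because the dyes were balanced within each age. The count of kept signs is therefore no measure of stability. The number of arrays limits precision.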
